A study of Arabidopsis thaliana with 12 samples.

Results

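The 8 genes described here encode AP2/ERF transcription factors of *Arabidopsis thaliana*: AT1G64380, AT4G28140, *ERF53* (AT2G20880), AT4G32800, AT1G75490, *RAP2.6* (AT1G43160), *TOE3* (AT5G67180) and *AIL5* (AT5G57390). They were chosen by their higher signal after hypoxia on these same arrays, among the AP2/ERF genes called in the study, and they are 8 of the 22746 *Arabidopsis* probe sets measured. The hypoxia responses of the 8 genes are therefore described without a test. The genotype comparisons use the same arrays, so their p-values are not independent of that choice. Each gene was read by 1 probe set. The array annotation names 4 of these probe sets, and those of *ERF53*, *RAP2.6*, *TOE3* and *AIL5* are named only through the study's table of called genes.

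The arrays hold RNA from siliques, pooled before extraction, of plants 45 days old at the mid phase of seed maturation. AtHb1 hypoxia and AtHb1 control plants carried LeB4::AtHb1, the class-1 hemoglobin coding region behind a seed-specific legumin promoter, in a Col-0 background and in a single line (L1-1, T3 generation). WT hypoxia and WT control plants were Col-0. Hypoxia was 1 h at 10.5% oxygen and control 1 h at 21% oxygen, and all plants, controls included, stood in darkness. There were 3 Affymetrix ATH1 arrays in each of the 4 groups. A silique holds seed and wall, so that fewer cells of a type and less RNA per cell cannot be told apart in these values.

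AP2/ERF factors bind DNA through the AP2 domain. The DREB branch binds dehydration-responsive elements of drought, cold and salt genes, and the ERF branch binds the GCC box of ethylene and defence genes. The AP2 branch, whose proteins hold a pair of AP2 domains, acts mainly in flower, embryo and meristem development. Group VII of the ERF branch is known for low-oxygen sensing through the N-degron pathway, and none of the 8 genes belongs to it.

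In AtHb1 siliques the hypoxia response (the log2 difference of group means, hypoxia minus control) was -0.48 to 2.23 with a median of 1.12, and 1 of the 8 genes, AT1G75490, lay below 0, as did 49.4% of all probe sets. In WT siliques it was 0.69 to 2.74 with a median of 1.79, and none lay below 0, where 57.2% of all probe sets did. The response was smaller in AtHb1 for 6 of the 8 genes. *TOE3* and *RAP2.6* had the larger difference in AtHb1. All 3 hypoxia arrays exceeded all 3 control arrays for 5 of 8 genes in AtHb1 and for 8 of 8 in WT, which over all probe sets was so for 19.5% in AtHb1 and 16.4% in WT. The difference was over 2-fold for 4 of 8 genes in AtHb1 and 6 of 8 in WT, beside 0.673% of all probe sets in AtHb1 and 1.57% in WT. Since the genes were chosen for a rise with hypoxia, nothing is read from these counts.

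**Figure D1:**
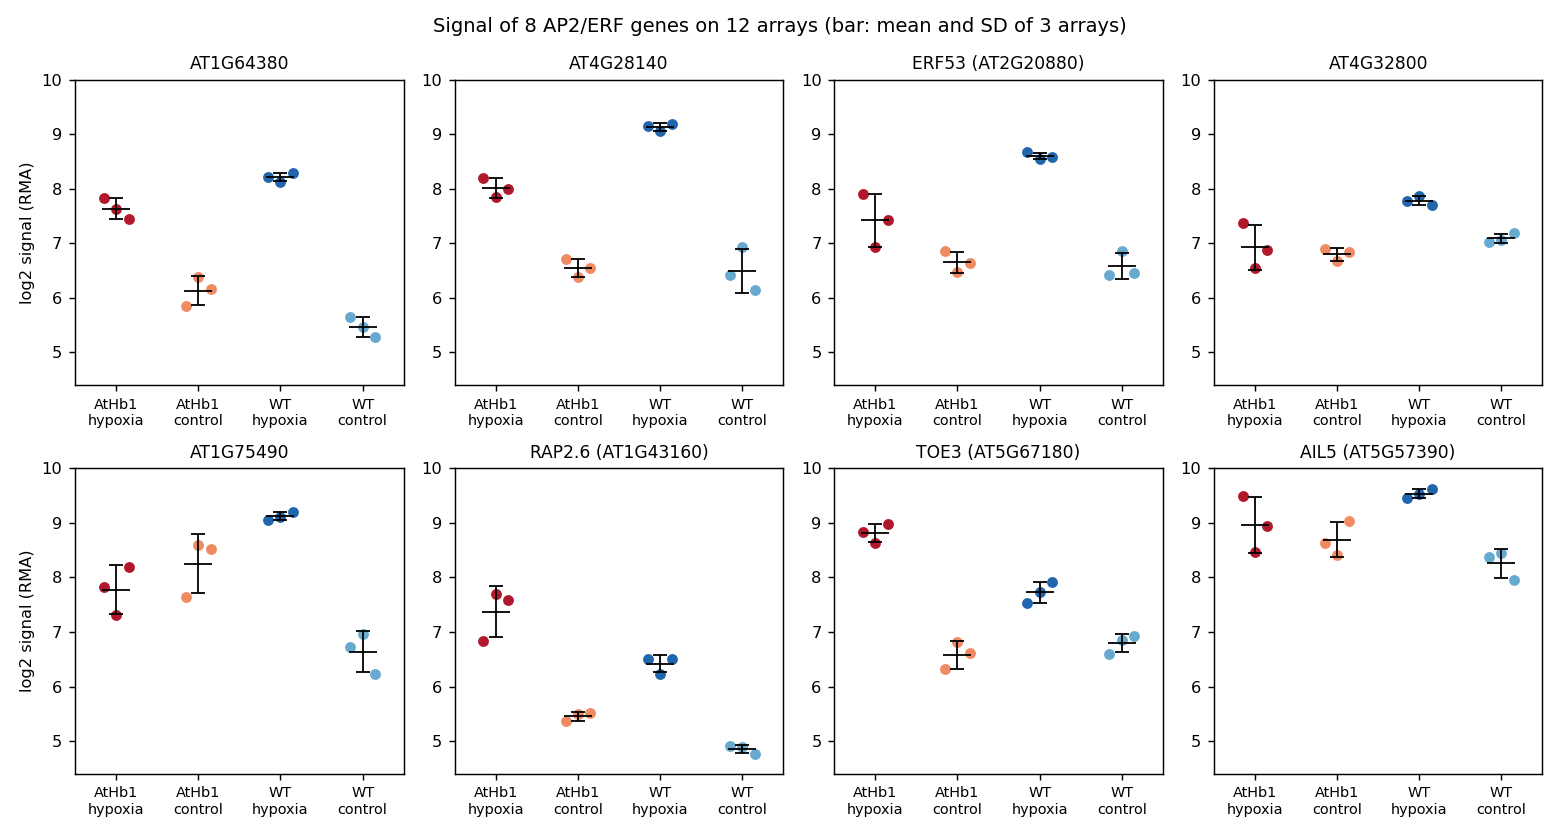
log2 signal (RMA) of each of the 8 genes on the 12 arrays, with a panel per gene and the 4 groups along the axis. Points are arrays and bars are the mean and SD of 3 arrays. The WT hypoxia arrays of AT1G75490 lie between 9.06 and 9.20, above every AtHb1 array of either treatment.

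AT1G64380, a DREB factor of subgroup A-6, read 7.84, 7.63 and 7.44 in AtHb1 hypoxia and 5.85, 6.39 and 6.15 in AtHb1 control. In WT it read 8.22, 8.13 and 8.28 under hypoxia and 5.65, 5.47 and 5.28 at control. The 4 groups did not overlap at any step, with WT hypoxia highest, then AtHb1 hypoxia, AtHb1 control and WT control. The hypoxia response was a log2 difference of 1.51 in AtHb1 and 2.74 in WT, which is 2.84-fold and 6.70-fold. The difference between the responses came from both ends: AtHb1 stood above WT at control by 0.66 (standard error 0.13, adjusted p = 0.00147) and below it under hypoxia, at -0.57 (standard error 0.13, adjusted p = 0.00332). Neither genotype difference reached 2-fold in limma. The WT control mean of 5.47 lies in the range of dim probe sets (a mean log2 signal below 6), where fold changes are compressed.

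AT4G28140, the second DREB A-6 factor, had nearly the same hypoxia response in both genotypes as AT1G64380, at 1.47 in AtHb1 and 2.63 in WT, but another pattern between the genotypes. It read 8.21, 7.84 and 8.00 in AtHb1 hypoxia and 6.71, 6.38 and 6.55 in AtHb1 control, against 9.15, 9.05 and 9.19 in WT hypoxia and 6.42, 6.94 and 6.14 in WT control. The control groups overlapped, and the lowest WT hypoxia array lay 0.85 above the highest AtHb1 hypoxia array. After hypoxia the gene was 2.17-fold lower in AtHb1, a log2 difference of -1.12 (standard error 0.16, adjusted p = 8.79e-05 in limma). The genotypes were 0.05 apart at control (standard error 0.16, adjusted p = 0.853).

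*ERF53*, a DREB-type factor of the drought and salt response that is degraded through RING-type ubiquitin ligases, followed the same pattern. It read 7.91, 6.94 and 7.42 in AtHb1 hypoxia and 6.85, 6.47 and 6.64 in AtHb1 control. In WT it read 8.67, 8.54 and 8.59 under hypoxia and 6.42, 6.86 and 6.46 at control. The hypoxia and control arrays of AtHb1 were only 0.09 apart at their nearest, while those of WT were 1.69 apart. The response was 0.77 in AtHb1 and 2.02 in WT. limma called *ERF53* lower in AtHb1 under hypoxia, with a log2 difference of -1.18 (standard error 0.19, adjusted p = 0.000214), and without AtHb1 hypoxia replicate 2 this value was -0.94, past the p limit but short of 2-fold. At control it was 0.07 (standard error 0.19, adjusted p = 0.808).

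AT4G32800, a TINY-like DREB factor, had a response of 0.13 in AtHb1 and of 0.69, the smallest of the 8 genes, in WT. The AtHb1 value was -0.088 without AtHb1 hypoxia replicate 1 and 0.32 without replicate 2. Its values were 7.37, 6.55 and 6.88 in AtHb1 hypoxia and 6.89, 6.67 and 6.84 in AtHb1 control, against 7.77, 7.87 and 7.70 in WT hypoxia and 7.02, 7.06 and 7.18 in WT control. WT hypoxia stood alone at the top, the AtHb1 control arrays lay below those of WT control, and the AtHb1 hypoxia arrays overlapped both the AtHb1 control and the WT control arrays. The genotype difference under hypoxia was -0.85 (standard error 0.15, adjusted p = 0.000460 in limma), below 2-fold. With 1 array left out it was -1.07 to -0.66, and it passed 2-fold without AtHb1 hypoxia replicate 1. At control it was -0.29 (standard error 0.15, adjusted p = 0.157).

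AT1G75490, a DREB factor of subgroup A-2, the subgroup of the drought and heat regulator DREB2A, had the largest genotype differences. It read 7.83, 7.30 and 8.19 in AtHb1 hypoxia and 7.64, 8.60 and 8.53 in AtHb1 control, against 9.06, 9.11 and 9.20 in WT hypoxia and 6.73, 6.96 and 6.22 in WT control. WT hypoxia was highest and WT control lowest, with both AtHb1 groups between them and overlapping each other. At control the gene was higher in AtHb1, by a log2 difference of 1.62 (standard error 0.25, adjusted p = 0.000204). After hypoxia the direction was the opposite, with AtHb1 below WT at -1.35 (standard error 0.25, adjusted p = 0.000736). These are 3.07-fold and 2.54-fold in opposite directions, both past the limits of limma. The hypoxia response was -0.48 in AtHb1, where the treatments overlapped, and 2.48 in WT. The AtHb1 response was -0.79 without AtHb1 control replicate 1, -0.31 without AtHb1 control replicate 2 and -0.24 without AtHb1 hypoxia replicate 2. Leaving out AtHb1 control replicate 1, which read 7.64, or any other single array left the difference at control between 1.41 and 1.93 and that under hypoxia between -1.55 and -1.11.

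*RAP2.6*, a factor of ERF group X that responds to wounding, jasmonate and abscisic acid, ran the other way. It read 6.83, 7.69 and 7.59 in AtHb1 hypoxia and 5.36, 5.50 and 5.51 in AtHb1 control, against 6.50, 6.23 and 6.51 in WT hypoxia and 4.90, 4.89 and 4.76 in WT control. No 2 groups overlapped, and AtHb1 stood above WT in both treatments. The genotype difference was 0.96 under hypoxia (standard error 0.17, adjusted p = 0.000437) and 0.61 at control (standard error 0.17, adjusted p = 0.0113), both below 2-fold. With 1 array left out the difference under hypoxia was 0.80 to 1.23. It passed 2-fold without AtHb1 hypoxia replicate 1 or without WT hypoxia replicate 3. The hypoxia response was 1.91 in AtHb1 and 1.56 in WT. The control means of 5.46 in AtHb1 and 4.85 in WT are those of a dim probe set.

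*TOE3*, an AP2-type factor of floral timing and a target of miR172, had the largest hypoxia response of the 8 genes in AtHb1, at 2.23, and 0.93 in WT. It read 8.82, 8.64 and 8.98 in AtHb1 hypoxia and 6.32, 6.83 and 6.61 in AtHb1 control, against 7.53, 7.73 and 7.92 in WT hypoxia and 6.60, 6.85 and 6.92 in WT control. The control groups overlapped, and the AtHb1 hypoxia arrays lay at least 0.71 above those of WT hypoxia. Under hypoxia *TOE3* was higher in AtHb1 by 1.09 (standard error 0.14, adjusted p = 3.56e-05 in limma), just past 2-fold. Without WT hypoxia replicate 1 this value was 0.99, which ends the call on the fold limit alone. The control difference was -0.21 (standard error 0.14, adjusted p = 0.269).

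*AIL5*, also known as CHOTTO 1 and EMBRYOMAKER, is an AINTEGUMENTA-like factor of embryo development and germination. Its values were 9.49, 8.46 and 8.94 in AtHb1 hypoxia and 8.63, 8.41 and 9.04 in AtHb1 control, against 9.45, 9.53 and 9.62 in WT hypoxia and 8.37, 8.45 and 7.96 in WT control. The AtHb1 treatments overlapped, with a response of 0.27, while those of WT did not, with a response of 1.28. The genotype difference was -0.57 under hypoxia (standard error 0.21, adjusted p = 0.0436) and 0.44 at control (standard error 0.21, adjusted p = 0.132), and 1 AtHb1 array lay within the WT range each time. limma called it in neither comparison. The adjusted p under hypoxia was not below 0.05 in 7 of the 12 fits with 1 array left out (up to 0.207), and the difference was -0.32 without AtHb1 hypoxia replicate 2. At control it was 0.26 without AtHb1 control replicate 3 and 0.29 without WT control replicate 3. The AtHb1 response was 0.0047 without AtHb1 hypoxia replicate 1 and 0.52 without replicate 2.

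**Figure D2:**
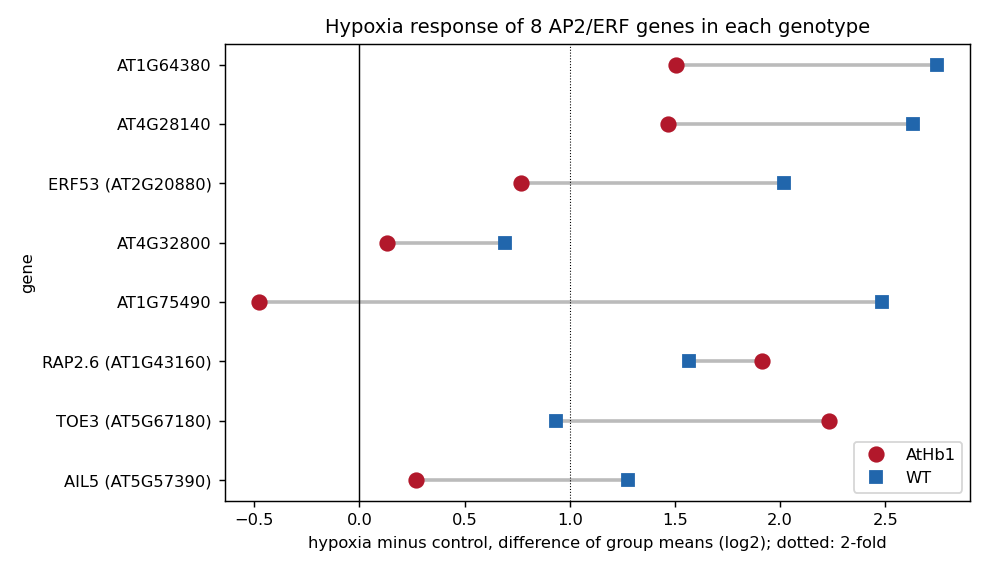
Hypoxia response of the 8 genes as the difference of group means, hypoxia minus control, in log2 units. Circles are AtHb1 and squares are WT, 3 arrays per group. For 6 genes the circle lies left of the square, and for *TOE3* (2.23 in AtHb1, 0.93 in WT) and *RAP2.6* (1.91 in AtHb1, 1.56 in WT) it lies to the right.

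As AtHb1 response minus WT response, the difference was -2.96 for AT1G75490, -1.25 for *ERF53*, -1.24 for AT1G64380, -1.17 for AT4G28140, -1.01 for *AIL5* and -0.56 for AT4G32800. It was 0.35 for *RAP2.6* (0.19 to 0.62 with 1 array left out) and 1.30 for *TOE3*. The 5 DREB genes thus had a smaller response in AtHb1, and the 2 AP2-type genes differed from each other in direction. For AT4G28140 and *ERF53* nearly all of the difference lay in the hypoxia groups, whereas for AT1G75490 both the control and the hypoxia values moved. With any 1 array left out, the same 6 genes had the smaller response in AtHb1. Over all probe sets the response was smaller in AtHb1 for 46.1%, smaller by over 2-fold for 1.55%, beside 5 of the 8 genes, and larger by over 2-fold for 0.501%, beside 1 of the 8. These differences rest on the responses that chose the genes and were not tested.

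**Figure D3:**
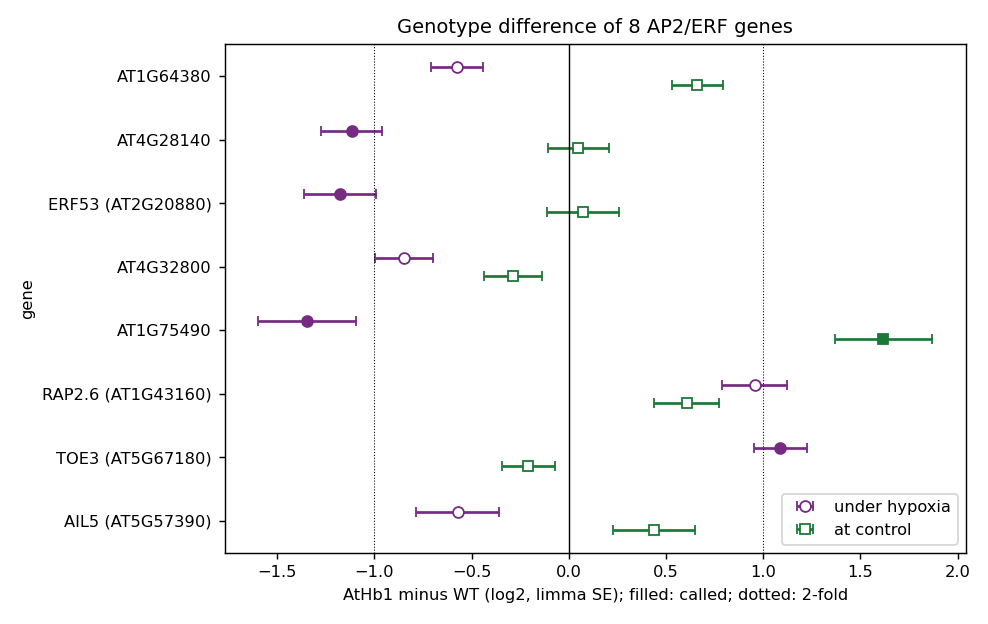
Genotype difference (AtHb1 minus WT) of the 8 genes in log2 units, under hypoxia (circles) and at control (squares). Bars are the moderated standard errors of limma, and filled symbols passed an adjusted p of 0.05 with a change over 2-fold. AT1G75490 is filled on both sides of 0, at -1.35 under hypoxia and 1.62 at control.

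Between the genotypes, limma called 1 of the 8 genes higher (*TOE3*) and 3 lower (AT4G28140, *ERF53* and AT1G75490) in AtHb1 under hypoxia, where it called 0.791% of all probe sets higher and 0.95% lower. At control it called 1 higher (AT1G75490) and none lower, beside 1.2% and 0.972% of all probe sets. By the adjusted p alone, 2 genes were higher and 6 lower under hypoxia, where 22.3% of all probe sets were higher and 18.3% lower, and 3 were higher and none lower at control, where 17.5% and 15.7% were. The fit pools the spread of all 4 groups, so the control p-values also carry the spread of the AtHb1 hypoxia arrays. With only the compared groups, AT4G32800 passed the adjusted p as lower at control. The AtHb1 and WT arrays did not overlap for 7 of the 8 genes under hypoxia, 2 with AtHb1 above and 5 with AtHb1 below, and for 4 genes at control, 3 above and 1 below. Over all probe sets such a gap was seen for 26.7% above and 24.2% below under hypoxia, and for 23.5% above and 22.9% below at control. With each array centred on its median, the calls over all probe sets under hypoxia were 131 higher and 253 lower, where the deposited values gave 180 and 216, and the calls of the 8 genes stayed as they were. These comparisons share their WT arrays with the hypoxia response of WT and their AtHb1 arrays with that of AtHb1. In addition, the study drew its list from genes called in any of its comparisons on these arrays, so that the counts are not independent evidence.

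The genotype difference averaged over the 2 treatments is the contrast that is arithmetically separate from both hypoxia responses. It is not separate from the study's list, which held genes called in any of its comparisons on these arrays, genotype comparisons among them. Its p-values are therefore not independent evidence. *RAP2.6* averaged 0.78 higher in AtHb1 (standard error 0.12, adjusted p = 7.96e-05) and *TOE3* 0.44 higher (standard error 0.10, adjusted p = 0.00165). AT4G32800 stood at -0.57 (standard error 0.10, adjusted p = 0.000450), *ERF53* at -0.55 (standard error 0.13, adjusted p = 0.00300) and AT4G28140 at -0.53 (standard error 0.11, adjusted p = 0.00116). None of these passed 2-fold, so limma called 0 of the 8 genes, while 5 passed the adjusted p alone, 2 higher and 3 lower, where 25.6% of all probe sets were higher and 23.5% lower. With the fold limit it called 0.457% of all probe sets higher and 0.585% lower (104 and 133, or 79 and 166 with each array centred on its median). For AT1G75490, AT1G64380 and *AIL5* the opposite differences of the 2 treatments left averages of 0.14, 0.04 and -0.07, with adjusted p-values of 0.554, 0.729 and 0.737.

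An indirect measure of RNA quality, read from the arrays themselves, differed between the genotypes. The mean 3' minus 5' log2 signal of the *Arabidopsis* actin, GAPDH and ubiquitin control probe sets was 1.75 to 1.97 in AtHb1 hypoxia and 1.75 to 1.90 in AtHb1 control, against 1.38 to 1.46 in WT hypoxia and 1.25 to 1.36 in WT control. As a covariate in limma it left 0 of the 5 genotype calls of the 8 genes, with adjusted p-values of 0.209 to 0.835. The difference under hypoxia was then -1.83 for AT1G75490, -0.94 for AT4G28140, -0.24 for *ERF53* and 0.64 for *TOE3*, and that of AT1G75490 at control was 1.101. It moved with genotype, and its part in the genotype differences cannot be told apart from genotype. The treatments overlapped in this signal in AtHb1 and did not overlap in WT, and its part in the hypoxia responses was not tested.

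The spread between arrays of the 8 genes was uneven. Their median SD was 0.43 in AtHb1 hypoxia, 0.22 in AtHb1 control, 0.08 in WT hypoxia and 0.21 in WT control, while over all probe sets it was 0.11, 0.09, 0.08 and 0.09 in the same groups. In AtHb1 hypoxia, replicate 2 was the lowest of the 3 arrays for 6 of the 8 genes and replicate 1 the highest for 5. The exceptions for replicate 2 were AT1G64380, where it lay in the middle, and *RAP2.6*, where it was the highest. Such ranks were not particular to AtHb1 hypoxia. WT hypoxia replicate 3 was the highest of its group for 6 of the 8 genes, and WT control replicate 3 the lowest for 5.

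The *AtHb1* probe set (AT2G16060) read 10.4 to 11.1 in AtHb1 hypoxia and 10.5 to 12.1 in AtHb1 control, against 9.06 to 9.14 in WT hypoxia and 5.88 to 6.14 in WT control. As the WT values show, it also reads the endogenous gene, so it does not measure the transgene alone. Tissue markers were thinly covered, since 1 of 9 seed maturation genes, 1 of 6 genes of green tissue and 2 of 5 pollen genes have a named probe set here. *RCA*, the Rubisco activase gene of green tissue, averaged 12.6 in AtHb1 hypoxia and 12.7 in AtHb1 control, against 13.2 in WT hypoxia and 13.1 in WT control, and every AtHb1 array lay below every WT array. limma gave a genotype difference of -0.55 under hypoxia (adjusted p = 0.000241) and -0.35 at control (adjusted p = 0.00614). *GEA6* (EM6), a late embryogenesis gene, averaged 5.38 in AtHb1 hypoxia, 6.76 in AtHb1 control, 5.45 in WT hypoxia and 5.08 in WT control. Its AtHb1 control arrays were spread from 5.38 to 7.46. The genotype difference of *GEA6* in limma was -0.07 under hypoxia (adjusted p = 0.903) and 1.69 at control (adjusted p = 0.00384). The pollen arabinogalactan genes *AGP6* and *AGP11* were highest in WT control, at means of 8.56 and 7.58, and lay between 6.91 and 7.31 (*AGP6*) and between 5.94 and 6.27 (*AGP11*) in the other groups. Both *AGP* genes and *GEA6* are named only through the study's table. The part of these tissue markers in the values of the 8 genes was not tested.

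Part of the rest of the family can be set beside the 8 genes. Of 126 other AP2/ERF genes on a fixed list, the array annotation names a probe set for 38, the study's table names 6 more, and 82 have no named probe set here. The 82 include *CBF1*, *DREB2A*, *HRE1* and *ERF5*, so the values of the 38 do not stand for the whole family. Among the 38, hypoxia gave a median log2 difference of -0.13 in AtHb1 and 0.01 in WT, where all probe sets had medians of 0.00 and -0.03. limma called 0 of the 38 in AtHb1 in either direction and 1 higher and 0 lower in WT. Over all probe sets it called 0.673% higher and 0.444% lower in AtHb1, and 1.53% higher and 0.29% lower in WT. By the adjusted p alone, 6 of the 38 were higher and 3 lower in AtHb1, beside 12.6% and 9.51% of all probe sets, and 4 were higher and 3 lower in WT, beside 8.7% and 7.13%. The 1 called gene was AT5G61590, of the ERF branch, at 1.05 in WT (standard error 0.09, adjusted p = 2.14e-06). The 8 genes were chosen for their response, so their distance from the 38 is no finding.

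**Figure D4:**
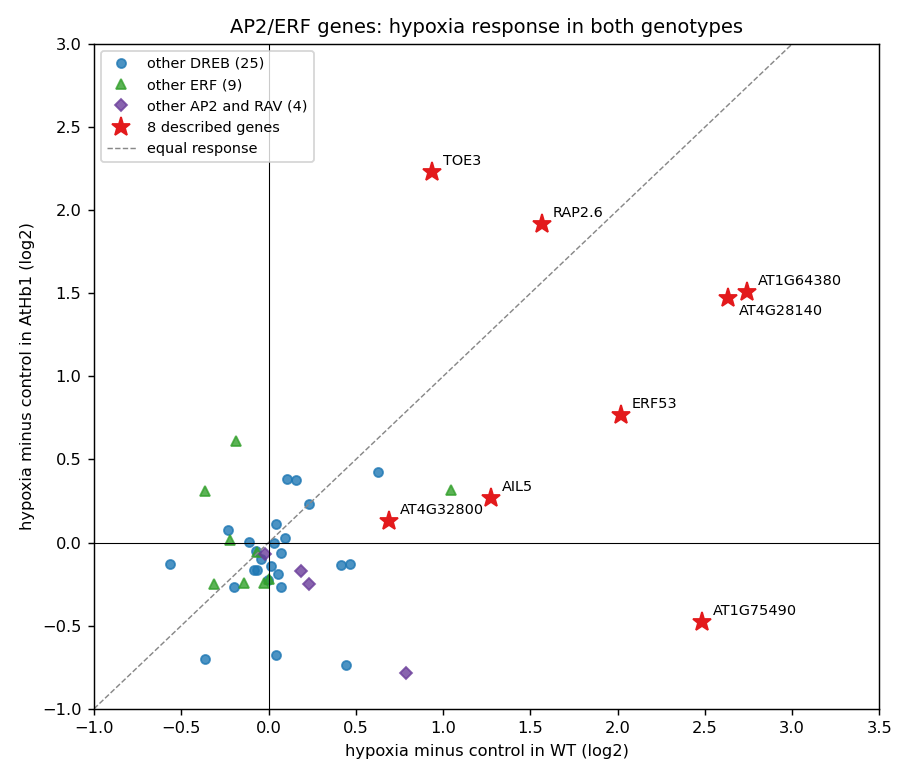
Hypoxia response (hypoxia minus control, difference of group means in log2 units) in AtHb1 on the vertical axis and in WT on the horizontal axis, for the 8 described genes (stars) and the 38 other AP2/ERF genes named by the array annotation. The dashed line marks an equal response, and of the stars only *TOE3* and *RAP2.6* lie above it.

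The 6 genes named only through the study's table were in it because they had been called on these arrays, and they are given as values. *ERF4*, a repressor with an EAR motif, had a hypoxia response of 1.21 in AtHb1 and 1.96 in WT. *ERF2*, an activator of GCC-box genes, had 1.18 in AtHb1 and 1.79 in WT. *ERF71* (HRE2), a group VII factor, had 1.80 in AtHb1 and 1.25 in WT, and *ERF6* had 1.17 in AtHb1 and 0.60 in WT, so that these 2 genes, like *TOE3* and *RAP2.6*, had the larger value in AtHb1. *ERF8* had 0.18 in AtHb1 and 1.09 in WT, and *ERF-1*, an activator through the GCC box, had 0.52 in AtHb1 and 1.13 in WT. Between the genotypes at control, limma called AT1G72570, of the AP2 branch, higher in AtHb1 by 1.08 (standard error 0.29, adjusted p = 0.0105). AT2G44940, a DREB A-4 gene, and *SHN3*, a regulator of cuticle formation, were called lower, at -1.34 and -1.36. In hypoxic siliques limma called 0 of the 38 genes between the genotypes, while the adjusted p alone counted 2 as higher and 12 as lower, beside 22.3% and 18.3% of all probe sets.

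Known targets of the DREB branch were read for 7 of 12 listed genes. Of the 4 that the annotation names, limma called 2 higher and 0 lower after hypoxia in WT, and 0 in either direction in AtHb1. Over all probe sets it called 1.53% higher and 0.29% lower in WT, and 0.673% and 0.444% in AtHb1. By the adjusted p alone, 2 were higher in WT and 3 in AtHb1, beside 8.7% and 12.6% of all probe sets, and 0 were lower. *COR47*, a dehydrin gene, had 0.83 in AtHb1 (below 2-fold) and 1.57 in WT (standard error 0.13, adjusted p = 1.29e-06). *COR15B*, a chloroplast protein gene of cold protection, had 0.58 in AtHb1 and 1.24 in WT (standard error 0.10, adjusted p = 5.15e-07). *COR15A* had 0.64 in AtHb1 and 0.03 in WT, and the dehydrin gene *LTI30* had 0.37 in AtHb1 and 0.19 in WT. Of those named through the study's table, *LTI78* (RD29A), the classic reporter of the dehydration-responsive element, had 1.098 in AtHb1 and 1.26 in WT. *ERD7* had 1.08 in AtHb1 and 1.19 in WT, and *ERD10*, a dehydrin gene, had 0.54 in AtHb1 and 1.30 in WT. The GCC-box defensin genes *PDF1.2* and *PDF1.2b*, 2 of 4 listed targets of the ERF branch, were called in neither genotype, with medians of 0.06 in AtHb1 and 0.10 in WT. *PDF1.2* had 0.25 in AtHb1 and 0.12 in WT, and *PDF1.2b* had -0.12 and 0.09. Their group means, 5.49 to 6.01 for *PDF1.2* and 5.98 to 6.16 for *PDF1.2b*, lay near or in the dim range (below 6), where fold changes are compressed.

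The genes most like each of the 8 over the 12 arrays were found by the root mean square difference of log2 values after each probe set was centred on its own mean, among 13973 other named probe sets. Nearest to AT1G64380 were *RBOHD*, the stress NADPH oxidase gene, at 0.21 and *LOX4*, a lipoxygenase gene of jasmonate synthesis, at 0.25. Nearest to AT4G28140 were *WRKY18* and *OZF2*, at 0.35 each, and nearest to *ERF53* were AT3G05640 and AT3G10720, at 0.25 each. *RAP2.6* was nearest to *PFK6*, a phosphofructokinase gene, at 0.21 and to *ETR2*, an ethylene receptor gene, at 0.22. *TOE3* was nearest to AT4G31020 at 0.23 and to *ERF71* at 0.26. *AIL5* was nearest to the cystatin gene *CYS2* at 0.21 and to AT1G54740 at 0.22, and AT4G32800 to AT2G05790 at 0.13 and AT2G25690 at 0.14. AT1G75490 had the largest distances, with AT1G68670 and *AtLEA4-1*, a late embryogenesis gene, at 0.46 each. *RBOHD*, *LOX4*, *WRKY18*, *OZF2*, *PFK6*, *ETR2*, *ERF71* and *CYS2* are named only through the study's table of genes called on these arrays. The search could thus find called genes that the annotation leaves out, but not the 8240 probe sets with no name. Among themselves, AT4G28140 and *ERF53* were each other's nearest member (0.36), as were *TOE3* and *RAP2.6* (0.40) and *AIL5* and AT4G32800 (0.38). The distance is not scaled to a gene's own spread, so distances of different genes are not on a par. The SD over the 12 arrays was 1.17 for AT4G28140, 0.88 for *ERF53*, 0.94 for *TOE3* and 1.02 for *RAP2.6*. It was 0.56 for *AIL5* and 0.44 for AT4G32800, so that their distance of 0.38 is close to the whole spread of AT4G32800.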

How the data were processed

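RNA of 12 silique samples was measured on Affymetrix ATH1 arrays. The deposited values are log2 signals per probe set, which the authors made with RMA from CEL files that came from MAS5. RMA corrects the background, makes the quantiles of the arrays' single probes equal and sums up the probes of a set. The array medians of the deposited values still differed. They were 7.60 to 7.61 in AtHb1 hypoxia, 7.51 to 7.55 in AtHb1 control, 7.49 to 7.58 in WT hypoxia and 7.45 to 7.48 in WT control. No RMA version is given in the sources used here. Of 22810 probe sets, 64 controls were set apart and 22746 tested. The annotation named 1 gene for 13484, and the study's table of called genes named 490 more. Per locus the single-gene probe set with the highest mean over the arrays was used. Groups and replicate numbers came from the sample titles. Tests used limma 3.58.1 in R 4.3.3 with 1 mean per group over all 12 arrays, Benjamini-Hochberg adjustment over all tested probe sets, and a call at an adjusted p under 0.05 with over 2-fold change. With 3 arrays a group, the smallest exact permutation p is 0.1. Tables and plots used Python 3.11.15 and pandas 2.3.3. The members and lists were chosen with earlier results of these data known. Named genes are the 8 members, up to 4 called genes of each list with the largest change and the 2 nearest genes of each member. List genes that were not called were named after their values were seen. The authors' own fold changes and p-values were not used. The number of arrays limits the precision. The code was tested on simulated data. Alternatives covered normalization, the spread, array weights, dim probe sets, limits, the replicate block, RNA quality and each array left out.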

Additional observations from a re-analysis of the deposited data

Results flagged for a closer look

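Effects ran in opposite directions in the 2 groups compared, with all arrays of the first-named group on 1 side of the mean of the group they were set against, for 3 of the 8 genes. None of these differences was tested. For AT1G75490 the hypoxia response was -0.48 in AtHb1 and 2.48 in WT, a difference of -2.96, though the single arrays of the AtHb1 treatments overlapped. The same -2.96 separates its genotype differences, -1.35 under hypoxia and 1.62 at control. For AT1G64380 the genotype difference was -0.57 under hypoxia and 0.66 at control, a difference of -1.24. For *AIL5* it was -0.57 under hypoxia and 0.44 at control, a difference of -1.01.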

How the results depend on the processing

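Renewed quantile normalization, median centring, mean probe sets, unadjusted p-values, trended and robust variances, the compared groups alone, dim probe sets left out and the replicate block changed no genotype call of the 8 genes (the block left 1 called higher at control, and 1 higher and 3 lower under hypoxia). Array weights called 2 higher under hypoxia. Over 18 same-numbered pairs of arrays, deviations from group means correlated at -0.13 to 0.12, with 2 over 0.1. Differently numbered pairs were not compared, so these values cannot show whether replicate numbers pair the arrays. Without a fold limit, 3 were higher at control, 2 higher and 6 lower under hypoxia, and 2 higher and 3 lower on average. At 1.5-fold, 3 were higher and 0 lower at control, 2 higher and 4 lower under hypoxia, and 1 higher and 0 lower on average. With 1 array left out, 0 to 2 were called higher and 2 to 4 lower under hypoxia. With the RNA quality covariate, which is confounded with genotype, 0 were called higher at control, 0 higher and 0 lower under hypoxia. The called differences kept their sign, at 1.101 for AT1G75490 at control and, under hypoxia, at -1.83 for AT1G75490, -0.94 for AT4G28140, -0.24 for *ERF53* and 0.64 for *TOE3*. Signs turned for AT4G32800 (0.87 at control, 0.23 under hypoxia, 0.55 on average), *RAP2.6* (AT1G43160; -0.63, -0.20 and -0.41), *AIL5* (AT5G57390; 0.68 under hypoxia, 1.23 on average), *ERF53* (AT2G20880; 0.42 on average), AT1G75490 (-0.36 on average) and *TOE3* (AT5G67180; -0.028 on average). The cause was not tested. Differences near 0 also changed sign: AT4G28140 at control (-0.0098 after median centring, -0.13 to 0.27 with 1 array left out), *ERF53* at control (-0.025 to 0.21), AT1G64380 on average (-0.024 after median centring, -0.0036 with array weights, -0.021 to 0.11 with 1 array left out) and *AIL5* on average (-0.20 to 0.058).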
